A study of Homo sapiens with 6 samples.

Results

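Cytosolic ribosomal protein genes were followed across 6 microarrays of U373, a human glioblastoma cell line that carries an ecdysone-inducible syk construct in 5 of the 6 samples. Members were taken by name: every probe set whose only symbol in the platform annotation began with RPL or RPS followed by a digit, A or P, with the RPS6K kinases left out. The rule found 51 of the 8226 genes named by a probe set with 1 symbol, read by 57 of the 12558 probe sets that are not controls, with 32 probe sets for large-subunit and 25 for small-subunit proteins. Another 24 probe sets carried such a symbol together with other symbols and were not members, so that 25 symbols of this form are not members. RPLP0, RPL13A, RPSA, RPL5 and RPS27A are not members and were not analysed here.

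Each of the 6 groups is a single array. The transfected groups are cells given ethanol and 10 µM ponasterone A (PonA) at day 1, the same treatment at day 2, cells given ethanol alone at day 1, untreated cells at day 1 and untreated cells at day 2. The remaining group is untransfected, untreated U373 cells at day 1. All cells grew in RPMI with 5 to 10% fetal calf serum. PonA is an ecdysteroid, of the family of the insect moulting hormone, that switches on a gene placed behind an ecdysone-responsive promoter, and ethanol is its solvent. Induction lasted 6 to 48 hours according to the labels, which do not give the hours behind each array. They do not say whether the transfected line is 1 clone, no ethanol array stands at day 2, and no untransfected cells received PonA. Nothing says that cultures were independent, so p-values measure only the spread between these arrays.

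Ribosomal proteins and ribosomal RNA together form the cytosolic ribosome, the machine that translates messenger RNA. The large subunit holds the RPL proteins and joins amino acids, and its stalk, built from the RPLP proteins, recruits translation factors. The small subunit holds the RPS proteins and decodes the message. Growing cells, tumour cells included, make these messages in large and balanced amounts. Most of them begin with a C followed by a run of pyrimidines, the 5′ terminal oligopyrimidine (TOP) motif, through which mTOR signalling controls their translation.

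The starts of some members show that motif in the genome sequence. RefSeq promoter windows of GRCh38.p14, read on the strand of the gene, were given for 43 of the 51 genes. Those not matched are RPL23AP53, RPL30, RPL37, RPL39L, RPL3L, RPL7, RPL8 and RPS15A. The letters searched were a C at an annotated start followed by at least 4 bases that are each C or T, so the motif overlaps no other motif searched. It was found at a start in 31 genes (72.1%), against 1404 of all 27303 genes of the table (5.14%). Among 74 mitochondrial ribosomal protein genes of the table, which serve a separate ribosome, 6 held it (8.11%). With the C allowed within 5 bases of the start, the counts were 37 members (86%) and 25.2% of all genes. Each line gives 30 bases, 10 before the start and 20 from it on, with the pyrimidine run at the start in capitals. The first 6 genes are examples with the match whose signals are described below. RPL19 and RPL32, also described below, have no match at an annotated start but have a match within 5 bases. RPS19 has 2 annotated starts and is shown at that with the match.
RPS6, chr9:19380217-19380246, minus strand: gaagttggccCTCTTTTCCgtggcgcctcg
RPS18, chr6:33272065-33272094, plus strand: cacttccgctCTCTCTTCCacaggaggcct
RPS19, chr19:41860245-41860274, plus strand: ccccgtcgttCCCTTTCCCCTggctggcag
RPL14, chr3:40457329-40457358, plus strand: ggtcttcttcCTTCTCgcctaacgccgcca
RPL35, chr9:124861938-124861967, minus strand: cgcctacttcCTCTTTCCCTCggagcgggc
RPL41, chr12:56116623-56116652, plus strand: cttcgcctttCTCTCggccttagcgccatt
RPL39, chrX:119791611-119791640, minus strand: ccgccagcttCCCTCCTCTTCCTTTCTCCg
RPL10A, chr6:35468391-35468420, plus strand: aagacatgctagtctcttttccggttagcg
RPL36AL, chr14:49620607-49620636, minus strand: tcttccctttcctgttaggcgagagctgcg
RPL39 is shown as the parent gene of RPL39L, the member with the largest change. RPL10A and RPL36AL are shown as members with no match at the annotated start, and their lines carry no capitals. Both have a match within 5 bases of it. A match describes these letters only.

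The deposited values are MAS5 signal, 1 brightness value per probe set. Values below the 40th percentile of their array, the floor, were set to it, and the floor lay between 22.7 and 26.5 units. The arrays correlated at a Pearson r of 0.946 to 0.985 over all probe sets on the log2 scale. The ratio of the 3′ to the 5′ probe set of GAPDH was 0.939 to 1.04, and that of beta-actin 0.96 to 0.987 at day 1 and 1.20 and 1.21 at day 2. The spike-in controls had a geometric mean of 501 and 352 with PonA at day 1 and day 2, 271 with ethanol, 474 and 405 in untreated transfected cells at day 1 and day 2, and 157 in untransfected cells. Of 8 astroglial marker genes measured, 5 (VIM, CD44, FABP7, TNC and GFAP) lay above the floor on all 6 arrays and AQP4 on none, with a summed signal of 13500 to 16450. SLC1A3, a glial glutamate transporter of that list, had 193 and 225 units with PonA at day 1 and day 2 on its brighter probe set, against 22.8 with ethanol, 38.8 and 24.0 untreated and 82.0 untransfected. Of 5 haematopoietic marker genes, CD3E lay above the floor on all 6 arrays (58.7 to 83.2 units) and CD79A on 1, PTPRC, CD14 and ITGAM lay above it on none, and the sum was 87.2 to 123. The sum of 4 neuronal marker genes was 54.5 to 531. SYK, the transfected gene, had 39.1 and 72.5 units with PonA at day 1 and day 2 on 1 probe set, against 14.4 with ethanol, 22.2 and 20.01 untreated and 1.74 untransfected. The 4 arrays without PonA lie under their floors there, so that this probe set was tested only through its PonA arrays, and it did not pass the threshold (adjusted p = 0.0803). Of the other 2 SYK probe sets, 1 lay under the floor on all 6 arrays and 1 had 56.4 and 35.2 units with PonA, against 64.1 with ethanol, 73.1 and 22.02 untreated and 31.1 untransfected.

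Ribosomal protein genes were among the brightest on the arrays. Of the 57 probe sets, 52 lay above the floor on all 6 arrays and 49 had a mean signal of at least 1000 units, between 1099 and 6786. The median mean signal was 3451 for the members and 43.6 for all probe sets. The brightest probe sets were those of RPL37A (mean 6786), RPLP1 (6523), RPL41 (6322), RPL8 (6116) and RPL38 (6049). RPLP1 is a stalk protein and RPL41 a very short basic peptide of the large subunit. Brightness also depends on the probes, so these values rank probe sets and not transcripts.

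**Figure D1:**
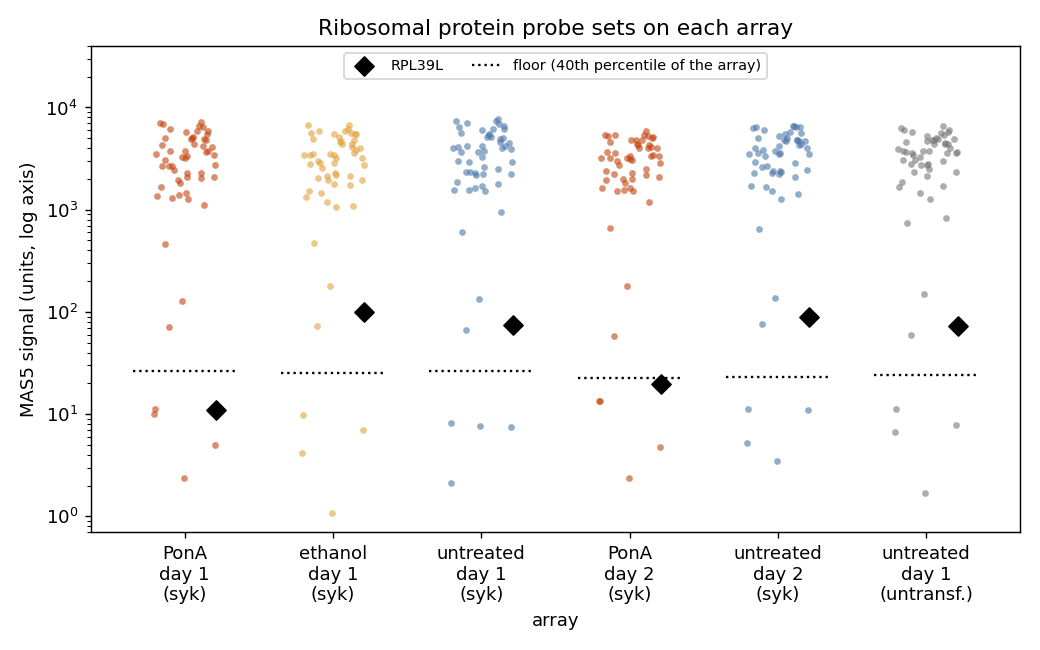
MAS5 signal on a log axis for the 57 ribosomal protein probe sets on each of the 6 arrays, 1 point per probe set, with RPL39L as a diamond and the floor of each array dotted. The 49 bright probe sets, with means over the arrays from 1099 to 6786, form 1 band on every array, and RPL39L lies under the floor only on the 2 PonA arrays.

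The probe sets of 4 members lay under the floor on all 6 arrays and were not tested. They are those of RPL39, RPL3L (a paralog of RPL3 known from muscle), the pseudogene RPL23AP53 and a second probe set of RPS14. The RPL39 probe set reached at most 7.60 units. The 53 others were tested.

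Across the 5 transfected arrays the members varied little. The SD of log2 signal had a median of 0.14 over the 53 tested members and 0.28 over all 7934 probe sets tested. Among bright probe sets it was 0.137 for the 49 members and 0.179 for the 474 other probe sets with a mean of at least 1099 units, which are dimmer, with a median mean signal of 1874 against 3600. At a mean of at least 3600 units the SD was 0.139 for 25 members and 0.128 for 70 others of like brightness (median 4902 and 4874), the members having the larger median there. After quantile normalization those values were 0.0701 and 0.0887. This brighter set was chosen after the values were seen. RPS19, a small-subunit protein whose gene is often mutated in Diamond-Blackfan anaemia, was the steadiest, with an SD of 0.049. Its signal was 4935 and 4768 units with PonA at day 1 and day 2, against 5110 with ethanol, 5125 and 4795 untreated at day 1 and day 2, and 4810 in untransfected cells. Those 6 values are close to each other and the groups overlap. RPL29 (0.090), RPL6 (0.093), RPS24 (0.096) and RPL32 (0.096) came next by SD. The most variable were RPL39L (1.01), RPL36AL (0.25), the dimmer RPS15A probe set (0.23), RPL34 (0.23) and RPL10A (0.22).

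Whether PonA moved these genes was asked with a limma fit of PonA and day over the 5 transfected arrays, 2 with and 3 without PonA. One member passed the threshold, an adjusted p under 0.05: RPL39L, which fell, and which was tested only because it exceeded the floor on the 3 arrays without PonA. That is 1 of 53 tested members (1.89%), against 402 of all 7934 probe sets, or 5.07% (2.7% higher and 2.37% lower). At an unadjusted p under 0.05 the member count was also 1, against 1548 probe sets in all. In bulk RNA, fewer cells that express a gene and less of its RNA per cell cannot be told apart.

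RPL39L encodes a paralog of RPL39, a small protein at the exit tunnel of the large subunit, and is known for its expression in testis and in tumour cells. Its signal with PonA was 11.1 units at day 1 and 19.8 at day 2, against 101 with ethanol and 74.0 untreated at day 1, 88.2 untreated at day 2 and 73.0 in untransfected cells. Both PonA arrays lay below all 4 others and below their floors of 26.5 and 22.7. Between the groups RPL39L was at least 3.54-fold lower with PonA, with both PonA arrays at their floor. Array by array it was at least 3.81-fold lower than with ethanol and at least 2.79-fold lower than untreated at day 1, and at least 3.88-fold lower than untreated at day 2. The adjusted p in the fit was 0.00697, and the fitted log2 effect of -1.81 depends on the floor. With the floor at the 25th percentile it was -2.61 (adjusted p = 0.0251). Among alternative runs with both PonA arrays, the effect passed the threshold except with no filter on low values (adjusted p = 0.0624). The runs that passed kept the filter through which RPL39L was tested, so they are no separate evidence. Which transcripts of the paralogs RPL39 and RPL39L each probe set reads was not tested.

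**Figure D2:**
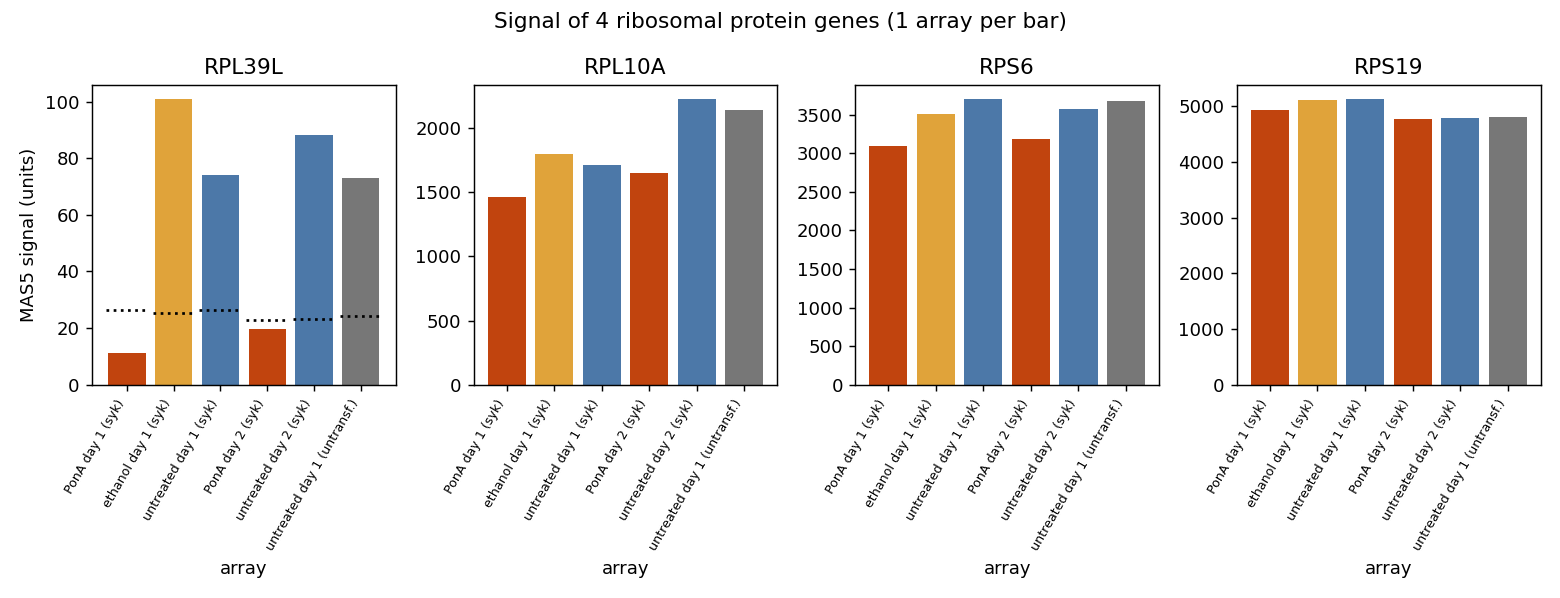
MAS5 signal of RPL39L, RPL10A, RPS6 and RPS19 on each array, 1 bar per array, with axes that start at 0 and the floor dotted for RPL39L. RPL39L is under the floor on both PonA arrays at 11.1 and 19.8 and at 73.0 or more on the others, while RPS19 keeps between 4768 and 5125 on all 6.

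The other 52 tested members gave small PonA effects that did not pass the threshold. The median log2 effect over the 53 was -0.10, with 46 negative and 7 positive and a middle range of -0.15 to -0.036. The median over all probe sets tested was 0.0054, and over the 474 other bright probe sets -0.056. At a mean of at least 3600 units it was -0.10 over 25 members and -0.072 over 70 others. The median SE of a member was 0.17, larger than most of the effects. Large-subunit members had a median of -0.10 (n = 29) and small-subunit members of -0.12 (n = 24). The members' median was -0.037 after quantile normalization, with 33 of 53 negative, and -0.14 with each array scaled to its median signal, with 49 negative. Single arrays moved it: without the PonA array of day 1 it was -0.21, without either array of day 2 it was -0.037, and leaving out ethanol gave -0.17. With ethanol as a further term it was 0.043, with 31 positive and 22 negative.

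RPL10A, a protein of the L1 stalk of the large subunit, had the largest negative effect after RPL39L. Its signal with PonA was 1461 units at day 1 and 1647 at day 2, against 1798 with ethanol and 1710 untreated at day 1, 2223 untreated at day 2 and 2141 untransfected. The PonA arrays were the lowest of the 6, but the log2 effect of -0.34 ± 0.17 did not pass (SE, adjusted p = 0.344). RPL18, of the large subunit, had 1830 and 1815 units with PonA, against 1942 with ethanol, 2177 and 2400 untreated and 2751 untransfected (log2 -0.27 ± 0.17, SE; adjusted p = 0.470). The brighter RPS21 probe set and RPL12, a protein at the base of the stalk, had effects of -0.23 ± 0.18 and -0.21 ± 0.17 (SE, adjusted p = 0.570 and 0.580).

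Both PonA arrays lay below all 3 transfected arrays without PonA for 10 of 53 members (18.9%), against 16.2% of all probe sets tested. These were RPL39L, RPL10A, RPL18, RPL12, RPL35, RPL32, RPS9, RPS6, RPS15 and the brighter RPS21 probe set. Both lay above for 0 of 53, against 16.7% of all. RPS6, the small-subunit protein that S6 kinases phosphorylate when mTOR is active, had 3093 and 3184 units with PonA, against 3504 with ethanol, 3701 and 3570 untreated and 3681 untransfected. Its 2 PonA values are the lowest and the log2 effect was -0.20 ± 0.16 (SE, adjusted p = 0.588).

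The largest positive effects were those of RPS25, RPL22, RPL37 and RPS27. RPS25, which takes part in initiation at internal ribosome entry sites, had 2019 and 2183 units with PonA, against 1759 with ethanol, 1788 and 2078 untreated and 1687 untransfected (log2 0.14 ± 0.16, SE; adjusted p = 0.714). The groups overlap, since the untreated array of day 2 lies between the PonA arrays. RPL22, which binds RNA of the Epstein-Barr virus, had effects of 0.11 and 0.025 on its dimmer and brighter probe sets. RPL37 and RPS27, both zinc-finger ribosomal proteins, had 0.075 and 0.049, and both turned negative without the PonA array of day 1, at -0.22 and -0.12.

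Genes often used to scale expression data gave small PonA effects. RPL19 had 4832 and 4083 units with PonA, against 4840 with ethanol, 5076 and 4674 untreated and 4440 untransfected, a log2 effect of -0.10 ± 0.17 (SE). RPL32 had 3270 and 3227 units with PonA, against 3503 with ethanol, 3677 and 3740 untreated and 3755 untransfected, a log2 effect of -0.17 ± 0.16 (SE). RPS18 had 5939 and 5154 units with PonA, against 5533 with ethanol, 6141 and 5661 untreated and 6017 untransfected, a log2 effect of -0.043 ± 0.17 (SE) that was 0.057 after quantile normalization. RPL11, which binds MDM2 when ribosome assembly is disturbed, had 3395 and 3330 units with PonA, against 3195 with ethanol, 3935 and 4032 untreated and 3619 untransfected, a log2 effect of -0.15 ± 0.18 (SE). The adjusted p of these 4 was 0.646 or more. RPS4X and RPS4Y1, paralogs on the sex chromosomes that serve the same place in the small subunit, had effects of -0.084 ± 0.17 and -0.034 ± 0.18 (SE). RPL36AL, a paralog of RPL36A, had one of -0.12 ± 0.19 (SE).

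**Figure D3:**
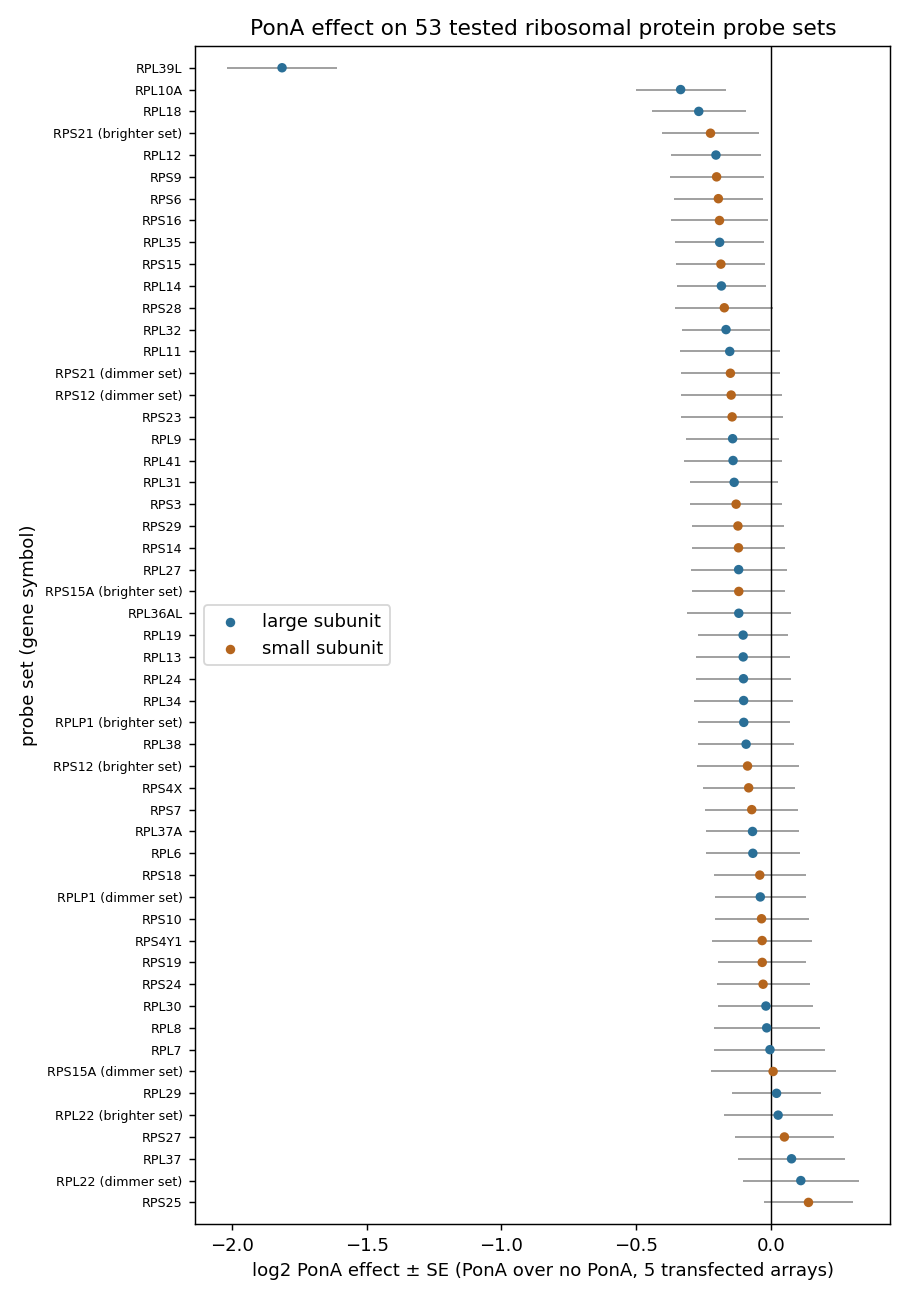
Fitted log2 PonA effect of the 53 tested probe sets, from lowest to highest, with bars of 1 SE and colours for the subunits. RPL39L stands at -1.81, with both PonA arrays at the floor, the other 52 lie between -0.34 and 0.14, and most bars reach or come near 0.

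Single arrays were also compared in pairs, which describes those arrays and allows no test. PonA against ethanol at day 1 gave a members' median log2 difference of 0.035 with 35 of 53 positive, and -0.043 with median scaling. PonA against untreated cells gave -0.14 at day 1 with 45 negative, and -0.21 at day 2 with 47 negative. Both were nearer 0 after quantile normalization, at -0.075 and -0.043. The medians over all probe sets were 0.027, 0.0016 and -0.015. Over the 474 other bright probe sets they were -0.0028, -0.040 and -0.11. At a mean of at least 3600 units they were 0.081, -0.12 and -0.20 over 25 members. Over 70 others of that brightness they were 0.043, -0.077 and -0.18. The comparisons of day 1 share the PonA array. A change of at least 1.5-fold downward was seen in each comparison for 1 of 53 members, RPL39L, against 7.65%, 9.79% and 11.6% of all probe sets. Upward it was seen for 0 members in each, against 10.1%, 11.5% and 13%.

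The array with the solvent alone was also below the untreated one. Ethanol against untreated cells at day 1 gave a members' median of -0.18, with 46 of 53 negative, against a median of -0.013 over all probe sets and -0.036 over the 474 other bright ones. At a mean of at least 3600 units it was -0.19 over 25 members and -0.13 over 70 others, and after quantile normalization -0.067 and 0.0024. The members' median was -0.084 after quantile normalization and -0.12 with median scaling. No member moved 1.5-fold, against 5.95% of all probe sets upward and 7.31% downward. RPL22 was the lowest of them, with 1058 units in ethanol against 1515 untreated on its dimmer probe set (log2 -0.52) and 1178 against 1628 on its brighter one (-0.47). RPL7, of the large subunit, followed with 3023 units in ethanol against 4209 untreated (-0.48).

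Counted in all 3 arrays that received ethanol, with or without PonA, each lay below the untreated transfected array of its own day for 38 of 53 members (71.7%), against 22% of all probe sets. Each lay above for 1 of 53, against 20.7%. The PonA and ethanol arrays of day 1 were set against the same untreated array, so these conditions are not independent. Members read from the same arrays are not replicates. After quantile normalization the first count was 21 (39.6%, against 21.6% of all), and with median scaling 37 (69.8%, against 20.1%). At a mean of at least 3600 units the count was 22 of 25 members (88.0%) and 41 of 70 others (58.6%), and after quantile normalization 10 (40%) and 13 (18.6%). All 3 lay below both untreated transfected arrays for 23 members (43.4%), against 13.7% of all probe sets, and above both for 0 members, against 12.6%. These counts were chosen after the values were seen. With ethanol as a further term in the fit, also added after seeing the data, the ethanol term was negative for 47 of 53 members with a median of -0.20, against -0.020 over all probe sets. The ethanol term had 1 residual degree of freedom and called 0 of 7934 probe sets in limma (567 at an unadjusted p under 0.05, of which 0 were members). RPL39L had a PonA effect of -2.05 (adjusted p = 0.0130) in that fit, again with both PonA arrays at the floor.

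**Figure D4:**
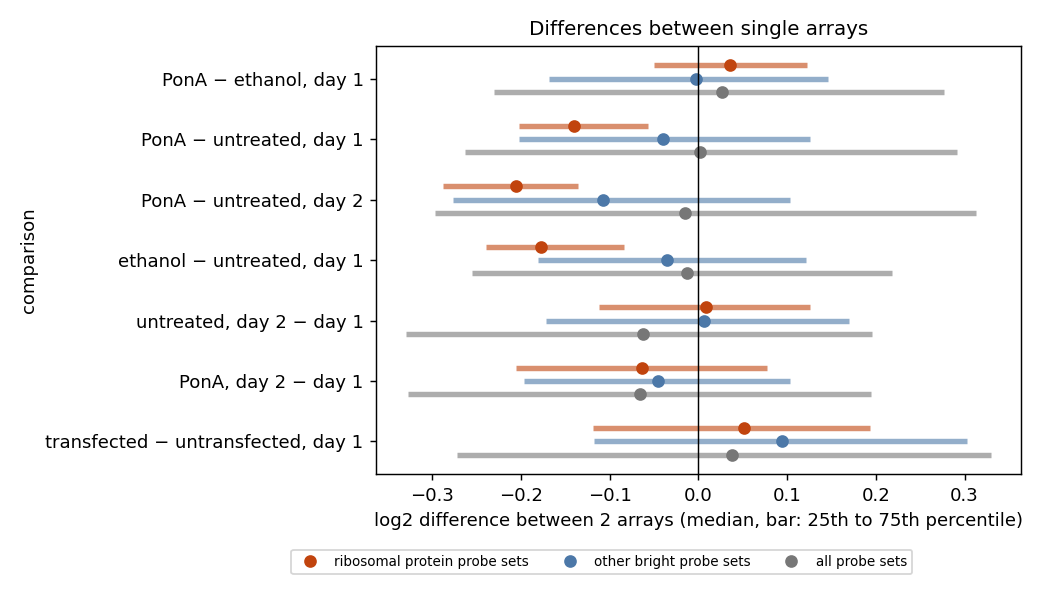
Median log2 difference between 2 arrays, with bars from the 25th to the 75th percentile, for the ribosomal protein probe sets, the 474 other probe sets with a mean of at least 1099 units and all probe sets, in 7 comparisons. The members' median is -0.14, -0.21 and -0.18 in the 3 comparisons of an array with ethanol against an untreated one, and between -0.063 and 0.052 in the other 4. The comparisons with the untreated transfected array of day 1 share that array.

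The summed signal of the members showed the same order of arrays. They made up 6.76% of the signal of all probe sets with PonA at day 1 and 6.38% at day 2, against 6.51% with ethanol, 7.21% and 7.09% in untreated transfected cells at day 1 and day 2, and 7.02% in untransfected cells. The 3 arrays with ethanol were the lowest, and they stayed so after quantile normalization, at 6.65%, 6.73% and 6.54% against 6.88%, 6.93% and 7.23%. Of the 49 bright probe sets, 25 had their lowest signal with PonA at day 2, 13 with ethanol, 5 with PonA at day 1, 1 in untreated transfected cells at day 1 and 5 in untransfected cells. Their highest signal stood in untreated transfected cells at day 1 for 21 and at day 2 for 10, in untransfected cells for 14, and on an array with PonA for 4 in all, 3 at day 1 and 1 at day 2. These positions were not counted for other probe sets. The 474 other bright probe sets had a geometric mean of 2002 and 1938 with PonA at day 1 and day 2, and 2032 with ethanol. It was 2067 and 2054 in untreated transfected cells at day 1 and day 2, and 1916 in untransfected cells. The spike-in level was 501, 352 and 271 on the arrays with ethanol and 474, 405 and 157 on those without. Its part in the result was not tested.

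Day 2 against day 1 in the same limma fit called 0 members, against 0% of all 7934 probe sets (1048 at an unadjusted p under 0.05, 0 of them members). The members' median log2 effect was 0.025, against -0.059 over all probe sets, and it was -0.073 without the untreated array of day 2. Between single arrays, no member moved 1.5-fold from day to day, against 5.9% of all probe sets upward and 10.7% downward in untreated cells and 5.29% and 10.5% with PonA. RPL36AL had 656 and 646 units at day 2 with PonA and untreated, against 458, 474 and 606 at day 1 with PonA, with ethanol and untreated (log2 0.38 ± 0.19, SE; adjusted p = 0.447). RPL34, of the large subunit, had 1963 and 2306 units at day 2, against 1665, 1511 and 1846 at day 1 in the same order (log2 0.37 ± 0.18, SE; adjusted p = 0.435). Both day 2 arrays lay above all 3 of day 1 for these genes, which were named for their large day effects. That separation was not counted over all probe sets. RPS4Y1 and RPL10A had 0.31 and 0.27, and the brighter RPLP1 probe set -0.26. The term for a PonA effect that differs between days called 0 members, against 0% of all probe sets (330 at an unadjusted p under 0.05, 0 of them members). Its median over the members was -0.18 and was -0.034 after quantile normalization.

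Transfected against untransfected cells, both untreated at day 1, showed members moving both ways. The median log2 difference was 0.052, with 33 of 53 positive, against 0.038 over all probe sets, and it was -0.060 after quantile normalization and -0.034 with median scaling. No member reached 1.5-fold, against 12.1% of all probe sets upward and 9.63% downward, but RPL14 lay at that limit, and the count was 1 after quantile normalization and 2 with median scaling. RPL14 and RPL35, both of the large subunit, came nearest. RPL14 had 1572 units in transfected cells against 2358 in untransfected cells (log2 -0.58), and 1308 to 1671 on all 5 transfected arrays. RPL35 had 2305 units in transfected cells against 3308 in untransfected cells (log2 -0.52), and 1935 to 2305 on all 5. Their values in untransfected cells thus lay above every transfected array, and after quantile normalization the differences were -0.59 and -0.56.

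Other large differences were those of RPL29, RPL41 and RPS12. RPL29, which binds heparin at the cell surface as well as serving the ribosome, had 2324 units in transfected cells against 3059 in untransfected cells (log2 -0.40). RPL41 had 7452 units in transfected cells against 5672 in untransfected cells (log2 0.39), and 0.12 after quantile normalization. The 2 RPS12 probe sets had 6842 and 5544 units in transfected cells against 5395 and 4358 in untransfected cells, and log2 differences of 0.34 and 0.35. The untransfected array lay above all 5 transfected arrays for 15 of 53 members (28.3%), against 20.4% of all probe sets, and below all 5 for 5 members (9.43%), against 23%. The 15 above hold 12 large-subunit genes, such as RPL18, RPL9 and RPL24, and RPS14, RPS15 and RPS23. The 5 below were RPS4X, RPS4Y1, RPS24, RPS25 and 1 of the RPS12 probe sets. Over 29 large-subunit probe sets the median difference was -0.0022, with 15 of them negative. Over 24 small-subunit probe sets it was 0.087, with 5 of them negative. The subunits also differed in brightness, with which these differences went, as described below. With untested members included, the median mean signal was 2589 units for the large and 3947 for the small subunit. Subunit and brightness were not separated. The astroglial marker GFAP had 103 units in transfected untreated cells at day 1 against 1533 in untransfected cells. The neuronal marker NEFL had 26.5 units in transfected untreated cells at day 1 against 458 in untransfected cells on its brighter probe set, and 10.1 to 26.5 on all 5 transfected arrays. Of the astroglial list VIM was higher in transfected cells, with 6458 units against 5102. CD44, FABP7, TNC, S100B and SLC1A3 were lower on their brightest probe sets, FABP7 with 2185 units against 2391. The neuronal markers GAD1, SNAP25 and SYT1 lay under the floor on both arrays. The part of these markers in the result was not tested.

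The direction of these differences went with brightness. Of the 16 brightest bright members, 0 were lower in transfected than in untransfected cells and the median was 0.23. Of the 16 dimmest, 11 were lower and the median was -0.17. At a mean of at least 3600 units the median difference was 0.18 over 25 members and 0.23 over 70 others. After quantile normalization it was -0.037 and 0.015. Across the 49 bright members the difference correlated with mean log2 signal at a Pearson r of 0.495, against 0.141 across the 474 other bright probe sets. For untreated cells at day 2 against day 1 the r was -0.599, against -0.0765, and for PonA at day 2 against day 1 it was -0.837, against -0.273. The members' r was -0.119 for ethanol against untreated cells, -0.284 for PonA against untreated cells at day 2 and 0.137 for PonA against ethanol. After quantile normalization the first 3 values of the members were 0.170, -0.365 and -0.504. Those of the 474 other bright probe sets were then -0.0106, 0.0539 and 0.0846. The points of each correlation come from the same 2 arrays, and the first and second comparison share the untreated transfected array of day 1.

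**Figure D5:**
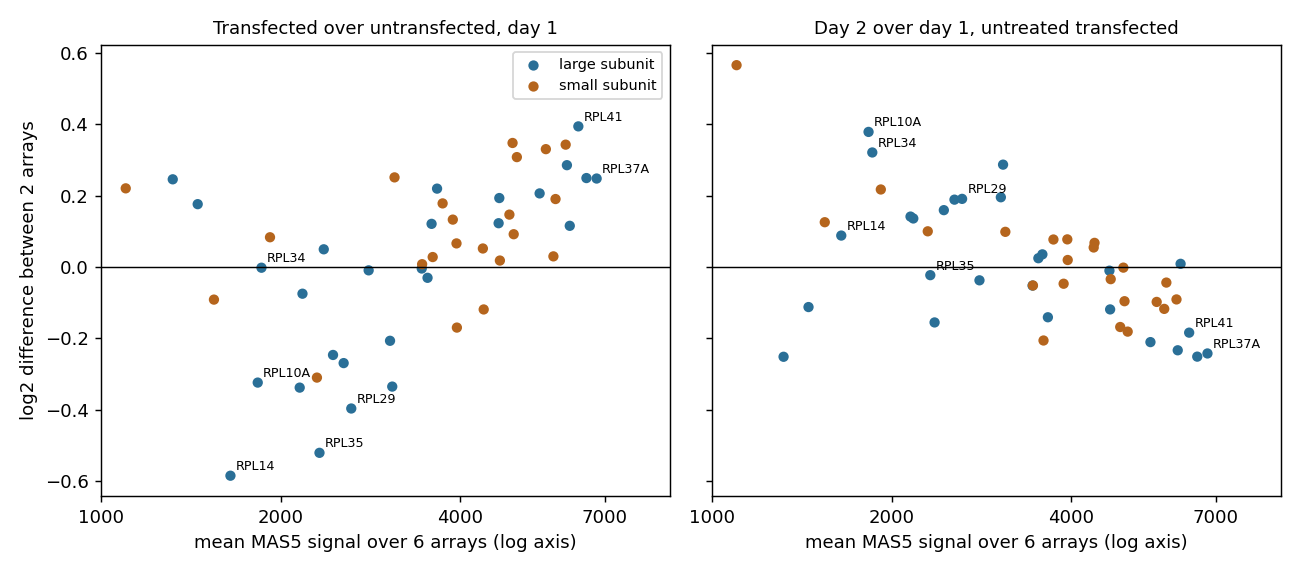
Log2 difference between 2 arrays against mean signal on a log axis for the 49 bright ribosomal protein probe sets, for transfected over untransfected cells (left) and day 2 over day 1 in untreated transfected cells (right). Brighter members lie higher on the left, r = 0.495, and lower on the right, r = -0.599.

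Among the members, 6 genes had 2 probe sets each. Those of RPL22 (means 1451 and 1318), RPLP1 (6523 and 5443) and RPS12 (6020 and 4902) had PonA effects within 0.084 of each other on the log2 scale. Those of RPS14 (4385 and 9.84), RPS15A (3600 and 151) and RPS21 (5788 and 67.2) were far apart in brightness. The dimmer RPS15A probe set moved against the brighter one with ethanol, by 0.43 against -0.23 on the log2 scale.

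The wider translation machinery was read from gene lists beside the members. The 18 tested probe sets of 14 mitochondrial ribosomal protein genes held 0 calls for PonA, against 5.07% of all probe sets, with 17 negative effects and a median of -0.30. MRPL28 had 170 and 160 units with PonA on its dimmer probe set, against 221 with ethanol, 275 and 273 untreated and 376 untransfected (log2 -0.64 ± 0.19, SE; adjusted p = 0.121). Its brighter probe set had a smaller effect of -0.28 ± 0.17 in the limma fit (SE, adjusted p = 0.447). FAU, whose product is cleaved into a small-subunit protein and which the naming rule misses, had an effect of -0.22 (adjusted p = 0.538). Elongation factors and other messages with a TOP motif, 23 probe sets of 16 genes, held 0 calls with a median of -0.038. EEF1A1, which carries aminoacyl-tRNA to the ribosome, had 6836 and 5450 units with PonA on its brightest probe set, against 6300 with ethanol, 7755 and 6868 untreated and 6275 untransfected.

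Ribosome biogenesis genes held 1 call among 31 tested probe sets (3.23%), downward, against 2.37% of all, with a median of -0.061. It was UBTF, a factor that lets RNA polymerase I transcribe ribosomal RNA genes. UBTF had 236 and 220 units with PonA at day 1 and day 2, against 496 with ethanol and 466 untreated at day 1, 360 untreated at day 2 and 391 untransfected. The PonA arrays were the lowest and UBTF fell (log2 -0.89 ± 0.17, SE; adjusted p = 0.0410). The call was lost without the PonA array of day 1 (log2 -0.71, adjusted p = 0.336) and without either array of day 2 (log2 -1.02, adjusted p = 0.145 without PonA and 0.130 without the untreated one). Its dimmer probe set had an effect of -0.60 ± 0.17 (SE, adjusted p = 0.110). Fibrillarin, FBL, which methylates ribosomal RNA, had 806 and 825 units with PonA on its brighter probe set, against 1188 with ethanol, 1039 and 1317 untreated and 1886 untransfected (log2 -0.55 ± 0.17, SE; adjusted p = 0.144).

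Growth control genes held 1 call among 34 tested probe sets (2.94%), upward, against 2.7% of all, with a median of 0.0052. It was RPS6KA2, a kinase of the RSK family downstream of ERK, with 47.8 and 54.5 units with PonA, against 27.8 with ethanol, 16.2 and 10.2 untreated and 7.37 untransfected. The values in untreated and untransfected cells lie under the floor. RPS6KA2 rose (log2 1.00 ± 0.18, SE; adjusted p = 0.0326), but the untreated arrays were set to the floor and the size depends on it. With the floor at the 25th percentile the limma fit gave a log2 effect of 1.7 (adjusted p = 0.126). Its brighter probe set had an effect of 1.37 ± 0.37 (SE, adjusted p = 0.1001). The call was lost without the PonA array of day 1 (log2 1.23, adjusted p = 0.106) and without either array of day 2 (log2 0.82, adjusted p = 0.252 without PonA and 0.233 without the untreated one). The MYC probe sets, 4 in number, had effects of -0.070, 0.25, 0.51 and 0.72 and none passed the threshold.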

How the data were processed

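Per the submitters' processing notes the authors made the deposited values with MAS5, as 1 signal per probe set on a linear scale. Its version was not given in the sources used here. The trimmed mean of each array, without the lowest and highest 2%, was 150.07 or 150.08. Symbols came from the platform annotation, updated to a RefSeq table of GRCh38.p14: 10943 probe sets had 1 symbol (10934 matched), 545 several and 1070 none. The 67 controls served for array quality only. Signals were floored at the array's 40th percentile and log2-transformed. limma 3.58.1 in R 4.3.3 fitted PonA and day over 5 arrays for the 7934 probe sets that exceeded the floor on 2 or more, with Benjamini-Hochberg adjustment at 0.05, 2 residual and 4.48 prior degrees of freedom. The residual holds the ethanol difference at day 1 and the change of the PonA effect between days. A fold of 1.5 described single-array comparisons. Scripts were tested on simulated data. Named genes were those called, the 5 most extreme by each measure, reference genes, paralogs and list members called. MRPL28, FAU, EEF1A1, FBL and MYC, and RPL7 with ethanol, were named after their values were seen. The number of arrays limits the precision. Members and lists were chosen with earlier results of these data known.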

Additional observations from a re-analysis of the deposited data

How the results depend on the processing

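No paired analysis was possible because each group is 1 array and the labels give no replicate numbers; day was a term of the fit instead. The count of members called for PonA was 0 with no filter on low values, where RPL39L had an adjusted p of 0.0624, and 1 under every other alternative run. Leaving out 1 array gave that count as 1 each time, with adjusted p-values of 0.00115 to 0.0443 for RPL39L and a members' median effect of -0.205 to -0.0365. Without a PonA array that group is 1 array, assumed to vary like the others, and without either array of day 2 the day term takes up the remaining one, so both give the same effect. Quantile normalization moved the median PonA-by-day term to -0.0338, the median difference of PonA against untreated cells at day 2 to -0.043, the transfection count past 1.5-fold to 1, and the share of signal with PonA at day 2 to 6.73%. Median scaling moved the median day effect to 0.154 and the transfection count to 2. With ethanol as a further term the median PonA effect was 0.0432. With 1 probe set per gene, fewer probe sets being summed, the share was 6.31% and 5.96% with PonA at day 1 and day 2, 6.08% with ethanol, 6.73% and 6.64% untreated and 6.61% untransfected. PonA effects that changed sign, none of them past the threshold, were RPS18 at 0.0574 with quantile normalization, RPL22 at -0.00481 and RPL29 at -0.0106 with median scaling, and RPL29 at -0.0725, RPS18 at 0.0803 and RPL11 at 0.0721 with the ethanol term. Leaving out 1 array at a time gave effects of both signs, from -0.216 to 0.293 for RPL37, -0.118 to 0.174 for RPS27, -0.0876 to 0.146 for RPL22, -0.0137 to 0.0562 for RPL29 and -0.135 to 0.0269 for RPS18. The calls of UBTF and RPS6KA2 were lost with the floor at the 25th percentile (adjusted p = 0.107 and 0.126), with no filter (0.0716 and 0.0780) and with the ethanol term (0.127 and 0.183). Where no cause follows from the alternative's construction, the cause was not tested. The other values, 152 for whole comparisons and 211 for single genes, stayed within the limits set for them. Single genes kept their direction and side of the threshold. Medians moved by less than the spread of 0.122 on the log2 scale, and counts were equal or within 1.5-fold. Shares of signal moved by less than their SD over the 6 arrays, 0.336 percentage points. The offset alternative moved the median of all probe sets by 0.185 to 0.201 on all arrays alike, and changes are read relative to it. Signal under the floor limits SYK, RPL39L, RPS6KA2 and the 4 untested members to bounds.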
